A study of Mus musculus with 6 samples.

Results

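The genes described here are Cd5l, which encodes a secreted protein, and 9 enzymes that make, desaturate and elongate fatty acids. These are the desaturases Scd1, Scd2, Fads1 and Fads2, the elongases Elovl1, Elovl5 and Elovl6, and the synthesis enzymes Fasn and Acaca. All 10 were found by symbol among the 23203 loci of the deposited table. The list was proposed with the FPKM values of the 2DG and vehicle libraries already known, so it counts as selected on those values, and the differences of these 10 genes between the groups are given as a description, without p-values. Naive mouse CD4 T cells were cultured for 48 h under conditions that yield Th17 cells, the helper T cells that make IL-17. The wells were coated with anti-CD3e at 10 µg/ml and held 1 µg/ml of anti-CD28. The cytokines were TGFb1 at 2.5 ng/ml, IL-23 at 10 ng/ml and IL-6 at 20 ng/ml. The vehicle group (3 libraries) received DMSO, and the 2DG group (3 libraries) received 250 µM 2DG (2-deoxyglucose), a glucose analogue that inhibits glycolysis. The sources used here give no strain, sex or age for the mice and do not say that replicates had separate donors or wells, so the p-values reflect only how far the 6 libraries scatter, and that scatter may be technical. The comparison asks which transcripts differ between Th17 cultures with 2DG and with vehicle. How far glycolysis was inhibited is not shown by these RNA values. Lipids themselves were not analysed here.

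Cd5l, also called AIM, belongs to the scavenger receptor cysteine-rich family, is known mainly as a product of tissue macrophages, and has been described in Th17 cells as a regulator of the balance between saturated and polyunsaturated fatty acids. Fatty acid synthesis starts when acetyl-CoA carboxylase (Acaca) makes malonyl-CoA, from which fatty acid synthase (Fasn) builds palmitate. Elongases then lengthen the chain, stearoyl-CoA desaturases (Scd1, Scd2) make monounsaturated fatty acids, and Fads1 and Fads2 take part in making long polyunsaturated fatty acids from dietary precursors. Many of these enzymes are known targets of the transcription factor SREBP-1 (Srebf1) and of the liver X receptors (LXR, Nr1h2 and Nr1h3), which sense oxysterols.

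With 2DG, Cd5l was 7.52-fold higher, while all 4 desaturases were lower, by between 1.22-fold for Fads1 and 2.14-fold for Scd1. Of the elongases, Elovl6 was 1.5-fold lower, and Elovl1 and Elovl5 were at overlapping levels. Of the synthesis enzymes, Fasn overlapped between the groups and Acaca was 1.15-fold higher. Levels are in FPKM (fragments for each kilobase of a transcript, scaled to the library). They are divided by transcript length, but comparisons between genes remain rough, since overlapping or near-identical genes have uncertain values. Differences are means of log2(FPKM + 1) with 2DG minus vehicle, with the SE of the limma fit. All 10 genes passed the filter on low values (1 FPKM or more as the mean of all libraries), as did 10228 loci in total. In 2 of the 10 genes (Cd5l and Acaca) every 2DG library was above every vehicle library, against 11.9% of all tested loci, and in 5 (Scd1, Scd2, Fads1, Fads2 and Elovl6) every 2DG library was below, against 11.8%. At a limma adjusted p under 0.05, Cd5l was called higher, against 1.53% of all tested loci, and Scd1, Fads2 and Elovl6 were called lower, against 1.19%. Leaving out any 1 library ended the call of Fads2, and that of Elovl6 except when 2DG replicate 3 was left out. Nothing is read from these counts, since the same contrast was used to select the genes.

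**Figure D1:**
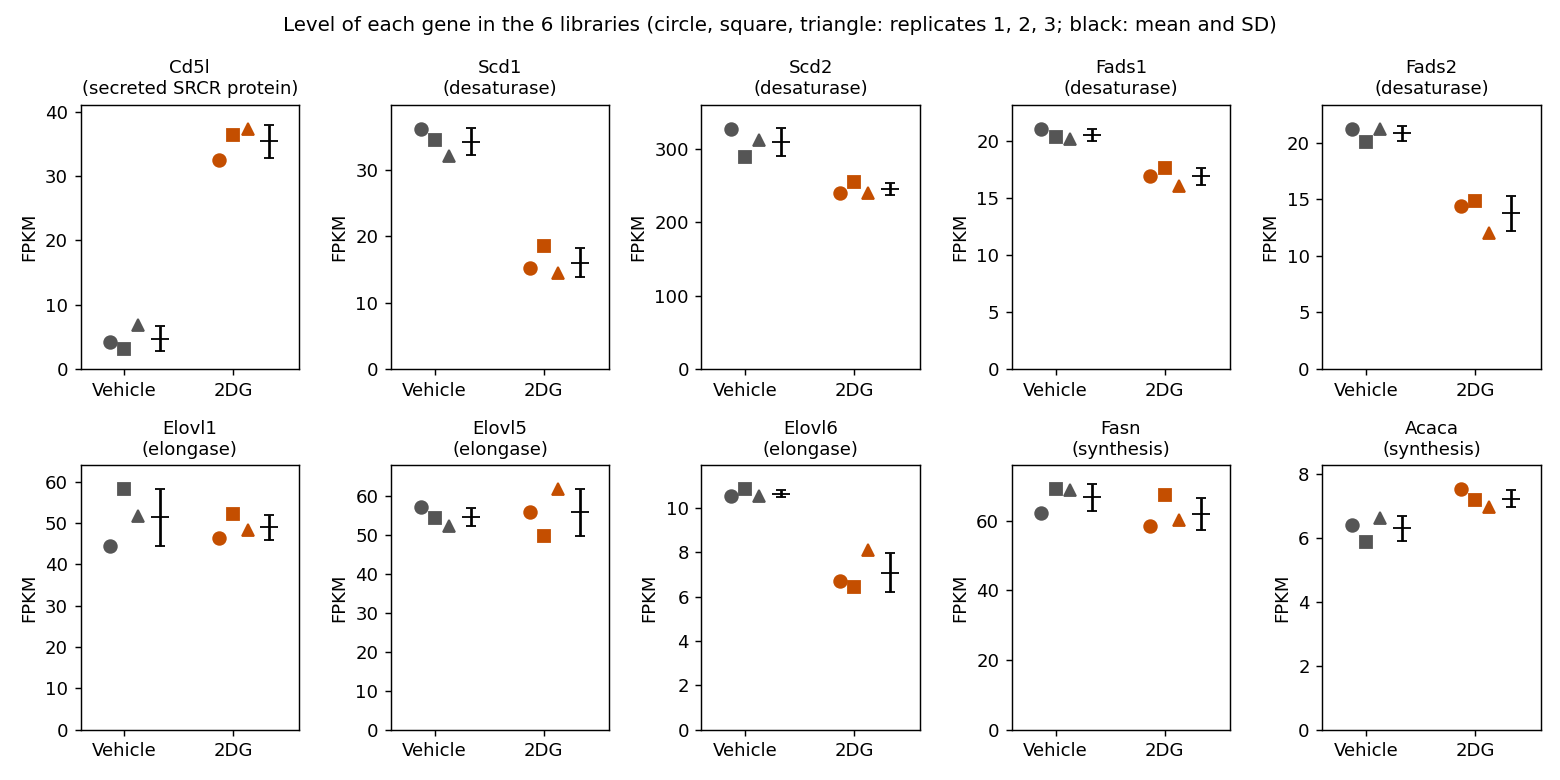
FPKM of each of the 10 genes (vertical axes, each starting at 0) in the 3 vehicle (grey) and 3 2DG (orange) libraries, with circles, squares and triangles for replicates 1, 2 and 3 and the mean and SD in black. Cd5l lies between 3.11 and 6.81 FPKM with vehicle and between 32.6 and 37.4 FPKM with 2DG, the 4 desaturases and Elovl6 are lower with 2DG without overlap, and Elovl1, Elovl5 and Fasn overlap.

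Cd5l (locus XLOC_012717, chromosome 3, 87357881 to 87371073, plus strand, GRCm38) was at 4.23, 3.11 and 6.81 FPKM in vehicle replicates 1, 2 and 3. In the 2DG libraries it was at 32.6, 36.5 and 37.4 FPKM. The lowest 2DG library was thus far above the highest vehicle library. The vehicle mean was 4.71 ± 1.90 FPKM and the 2DG mean 35.5 ± 2.56 FPKM (SD, n = 3 per group), and the log2 difference was 2.72 ± 0.22 (SE). Relative to its mean, Cd5l varied more between the vehicle libraries (coefficient of variation 40.2%) than any of the 9 enzymes in either group (at most 13.5%). Between the 2DG libraries its coefficient of variation was 7.23%. By the size of the log2 difference, Cd5l stood 24th from the top of the 10228 tested loci. Its difference ran from 2.51 without vehicle replicate 2 to 2.97 without vehicle replicate 3.

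Because macrophages are the usual source of Cd5l, the levels of 14 macrophage marker genes are given beside it. Summed over the list they were at 1.59 to 4.71 FPKM in the vehicle libraries and at 1.34 to 3.52 FPKM in the 2DG libraries, so the groups overlapped. Marco, Clec4f, Vsig4, C1qc and Timd4 were listed at 0 in all 6 libraries. Cd68, a lysosomal protein of macrophages that other cells also express, ranged from 0.695 to 2.12 FPKM over the 6 libraries, and Lyz2, for lysozyme, from 0.305 to 2.41 FPKM. Csf1r, the macrophage growth factor receptor gene, did not exceed 0.120 FPKM and Adgre1 (listed as Emr1), for F4/80, did not exceed 0.0803 FPKM. Of the list only Cd68 and Lyz2 reached the filter and neither passed the test (limma adjusted p = 0.74 and 0.88; 0 of 2 at an unadjusted p under 0.05). In bulk RNA, more cells with a transcript and more transcript per cell cannot be told apart.

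The labelled cell type was checked against its markers. Cd3e, Cd3d, Cd3g, Cd4, Lck, Il17a, Il17f, Ccr6 and Il23r were all detected in every library. Il17a, for the cytokine that defines these cells, rose, with 252 ± 16.1 FPKM in the vehicle libraries and 651 ± 69.2 FPKM in the 2DG libraries (SD, n = 3 per group; limma adjusted p = 0.0032). Ccr6, for a chemokine receptor, rose too, with a log2 difference of 1.12 ± 0.18 (SE, limma adjusted p = 0.025). The call of Ccr6 was lost in 7 of 16 alternatives, namely without vehicle replicate 1 (adjusted p = 0.053), vehicle replicate 2 (0.084), 2DG replicate 1 (0.095) or 2DG replicate 2 (0.079), with replicates 2 and 3 only (0.14), with no filter on low values (0.062) and with the replicate block (0.074). Of these 9 markers 2 rose, 0 fell and 7 did not pass, where 1.53% of all tested loci were called higher and 1.19% lower. At an unadjusted p under 0.05, 3 were higher (Il17a, Ccr6 and Il17f) and 0 lower. Il17f had a log2 difference of 0.37 ± 0.15 (SE, limma adjusted p = 0.25), with overlap between the groups. The B cell markers summed to at most 3.71 FPKM, the dendritic cell markers to at most 1.34 FPKM, the NK cell markers to at most 0.231 FPKM and the CD8 T cell markers to between 2.68 and 5.51 FPKM, with overlap between the groups in each list. The part of any such cells in the results was not tested.

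The stearoyl-CoA desaturases were lower with 2DG, and the lower-expressed Scd1 showed the larger difference. Scd1 (XLOC_010506, chromosome 19, 44394455 to 44407879, minus strand) was at 36.2, 34.5 and 32.0 FPKM in vehicle replicates 1 to 3 and at 15.2, 18.4 and 14.4 FPKM in the 2DG libraries. Each 2DG library was below each vehicle library by a wide margin. The means were 34.2 ± 2.09 and 16.0 ± 2.15 FPKM (SD, n = 3 each), a log2 difference of -1.06 ± 0.11 (SE). Scd2 (XLOC_010124, chromosome 19, 44293674 to 44306864, plus strand) was at 327, 289 and 311 FPKM with vehicle and at 240.1, 255 and 239.9 FPKM with 2DG. Its groups did not overlap either, with 289 FPKM as the lowest vehicle value and 255 FPKM as the highest 2DG value. The log2 difference was -0.33 ± 0.08 (SE). The table lists Scd2 together with the microRNA gene Mir5114, so its value is that of the shared locus. Mir5114 lies within the Scd2 gene on the same strand and overlaps an exon of Scd2. Scd2 was the most highly expressed of the 10 genes in every library and above 97.4% of tested loci in its mean level. Scd1 made up 9.98% ± 0.671 of the summed Scd1 and Scd2 FPKM with vehicle and 6.12% ± 0.566 with 2DG (SD, n = 3 each). The ratio of Scd2 to Scd1 went from 9.05 ± 0.674 to 15.4 ± 1.47. The other genes of the cluster on chromosome 19, Scd3 (49.7 kb from Scd2) and Scd4 (between Scd2 and Scd1), stayed at or below 0.178 FPKM in every library, under the filter.

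Fads1 and Fads2, which lie 81.1 kb apart on chromosome 19, had overlapping levels with vehicle and were both lower with 2DG. Fads1 (XLOC_009935, 10182888 to 10196877, plus strand) was at 21.1, 20.3 and 20.2 FPKM with vehicle and at 17.0, 17.7 and 16.1 FPKM with 2DG. Fads2 (XLOC_010325, 10062765 to 10101746, minus strand) was at 21.2, 20.1 and 21.2 FPKM with vehicle and at 14.4, 14.8 and 12.02 FPKM with 2DG. In both genes all 2DG libraries were below all vehicle libraries, and the gap was wider for Fads2. The log2 differences were -0.27 ± 0.07 for Fads1 and -0.57 ± 0.10 for Fads2 (SE). The ratio of Fads2 to Fads1 was 1.01 ± 0.0336 with vehicle and 0.811 ± 0.0565 with 2DG (SD, n = 3 each), and the values of the groups, at least 0.986 and at most 0.848, did not overlap. Fads3, 2.65 kb from Fads2, was at 0.420 ± 0.0531 FPKM with vehicle and between 0.218 and 0.359 FPKM with 2DG, under the filter. Among the 2DG libraries, replicate 2 had the highest level of all 4 desaturases.

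**Figure D2:**
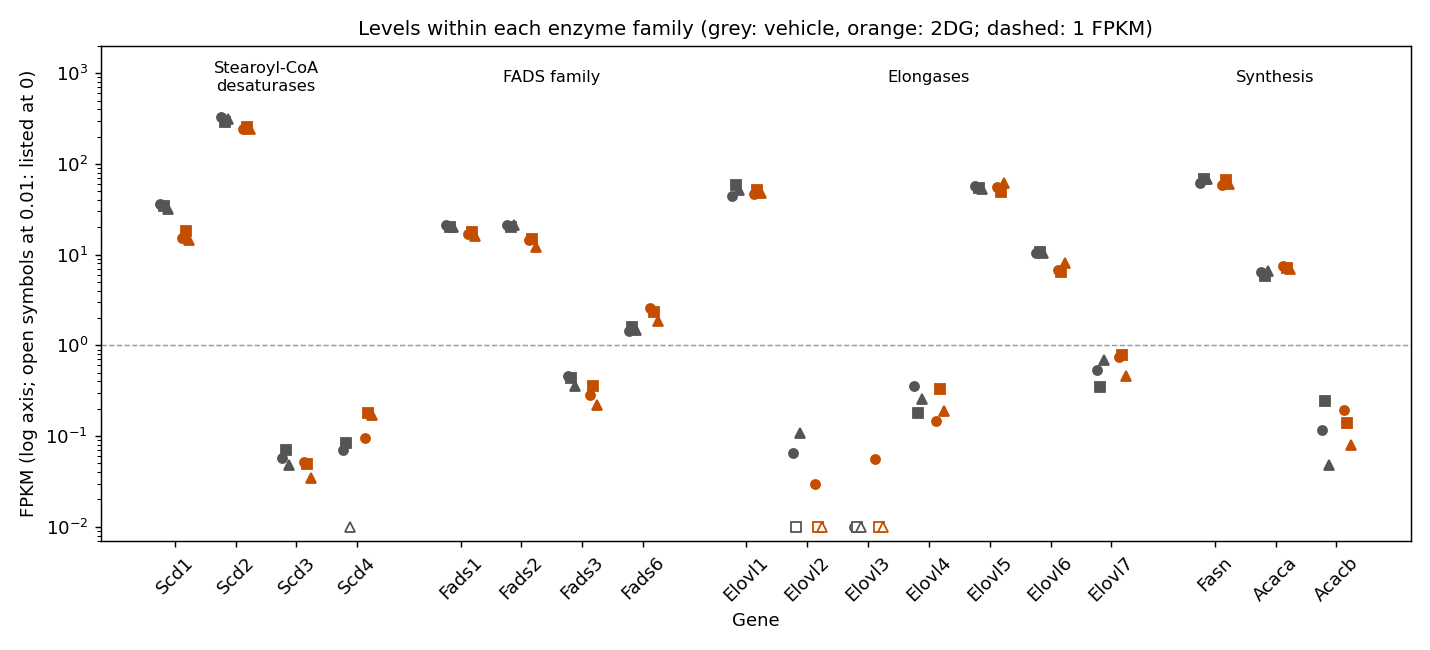
FPKM on a log axis of the members of each enzyme family in the 3 vehicle (grey) and 3 2DG (orange) libraries, with open symbols at 0.01 for values listed at 0 and a dashed line at 1 FPKM. Scd2 lies above Scd1 by 9.05-fold with vehicle and 15.4-fold with 2DG, and Scd3, Scd4, Fads3, Elovl2, Elovl3, Elovl4, Elovl7 and Acacb lie below 1 FPKM in every library.

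Of the elongases, the one with the lowest level of the 3 was lower with 2DG and the other two overlapped. Elovl6, which extends palmitate to stearate (XLOC_012995, chromosome 3, 129532355 to 129638495, plus strand), was at 10.5, 10.8 and 10.5 FPKM with vehicle. With 2DG it was at 6.71, 6.42 and 8.09 FPKM. The vehicle libraries lay within a coefficient of variation of 1.57%, and every 2DG library was below them. The log2 difference was -0.53 ± 0.10 (SE). Elovl5, which extends polyunsaturated fatty acids (XLOC_021213, chromosome 9, 77917364 to 77984519, plus strand), was at 57.2, 54.3 and 52.4 FPKM with vehicle and at 56.1, 49.7 and 61.7 FPKM with 2DG. The 2DG libraries thus spanned the whole vehicle range, and the log2 difference was 0.03 ± 0.10. Elovl1, which extends saturated chains to very long ones (XLOC_013999, chromosome 4, 118428093 to 118432953, plus strand), was at 44.4, 58.2 and 51.8 FPKM with vehicle and at 46.4, 52.3 and 48.4 FPKM with 2DG. All 2DG values lay inside the vehicle range, with a log2 difference of -0.06 ± 0.11. The sign turned with 1 library left out in both genes: the difference of Elovl1 was 0.03 without vehicle replicate 2, and that of Elovl5 was -0.05 without 2DG replicate 3 and -0.0026 without vehicle replicate 3. Elovl6 made up 9.12% ± 0.313 of the summed FPKM of the 3 elongases with vehicle and 6.30% ± 0.477 with 2DG, while their sum was 117 ± 5.85 and 112 ± 5.48 FPKM (SD, n = 3 each).

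The synthesis enzymes differed little between the groups. Fasn (XLOC_004074, chromosome 11, 120805846 to 120824547, minus strand) was at 62.3, 68.9 and 68.7 FPKM with vehicle and at 58.3, 67.2 and 60.3 FPKM with 2DG. The groups overlapped, with a log2 difference of -0.10 ± 0.09 (SE). Acaca (XLOC_002879, chromosome 11, 84129672 to 84401651, plus strand) was at 6.40, 5.86 and 6.61 FPKM with vehicle and at 7.51, 7.18 and 6.97 FPKM with 2DG. Here every 2DG library was above every vehicle library, by a small margin, and the log2 difference was 0.17 ± 0.09. The ratio of Fasn to Acaca was 10.6 ± 1.04 with vehicle and 8.59 ± 0.796 with 2DG (SD, n = 3 each). Acacb, the carboxylase of the mitochondrial surface, was at most at 0.246 FPKM.

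The order of the mean levels was compared between the groups. With vehicle the means ran from Scd2 (309 FPKM) through Fasn (66.6), Elovl5 (54.6), Elovl1 (51.4), Scd1 (34.2), Fads2 (20.8), Fads1 (20.6), Elovl6 (10.6) and Acaca (6.29) to Cd5l (4.71 FPKM). Neighbours whose libraries overlapped were Elovl5 and Elovl1, Fads2 and Fads1, and Acaca and Cd5l. With 2DG the order was Scd2 (245 FPKM), Fasn (61.9), Elovl5 (55.8), Elovl1 (49.0), Cd5l (35.5), Fads1 (16.9), Scd1 (16.0), Fads2 (13.7), Acaca (7.22) and Elovl6 (7.07 FPKM). Cd5l moved from the last to the fifth place, apart from its neighbours, while Fasn and Elovl5, Elovl5 and Elovl1, Fads1 and Scd1, Scd1 and Fads2, and Acaca and Elovl6 overlapped. Over the 9 enzymes the median log2 difference was -0.27, against -0.01 over all tested loci, and 7 of the 9 were below 0.

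The sequence before the start site is shown for a gene that was higher (Cd5l), a gene that was lower (Elovl6) and a gene whose groups overlapped (Fasn). RefSeq promoter windows on GRCm38.p6, from 250 bases before to 50 bases after a start site, were matched by symbol for 7 of the 10 genes (Cd5l, Fads2, Elovl1, Elovl5, Elovl6, Fasn and Acaca, 8 windows). They are printed 5′ to 3′ on the strand of the gene, ending before the first base of the GENCODE gene, for chr3:87357631-87357880 (plus strand), chr3:129532136-129532354 (plus strand) and chr11:120824548-120824797 (minus strand). Capitals mark any match, on either strand, to a sterol regulatory element (TCACNCCAC), a CCAAT box (CCAAT), an E-box (CACGTG), a nuclear receptor half-site (AGGTCA) or a direct repeat of that half-site with NNNN between the copies, which contains it.
Cd5l: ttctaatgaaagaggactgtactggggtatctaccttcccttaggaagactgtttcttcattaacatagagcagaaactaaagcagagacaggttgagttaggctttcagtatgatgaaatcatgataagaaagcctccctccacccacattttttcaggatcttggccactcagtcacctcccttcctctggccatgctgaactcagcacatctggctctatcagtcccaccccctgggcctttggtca
Elovl6: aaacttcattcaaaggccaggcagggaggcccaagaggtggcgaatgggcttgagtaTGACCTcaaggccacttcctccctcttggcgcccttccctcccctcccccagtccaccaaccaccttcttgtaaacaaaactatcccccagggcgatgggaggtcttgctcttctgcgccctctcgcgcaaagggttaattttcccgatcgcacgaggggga
Fasn: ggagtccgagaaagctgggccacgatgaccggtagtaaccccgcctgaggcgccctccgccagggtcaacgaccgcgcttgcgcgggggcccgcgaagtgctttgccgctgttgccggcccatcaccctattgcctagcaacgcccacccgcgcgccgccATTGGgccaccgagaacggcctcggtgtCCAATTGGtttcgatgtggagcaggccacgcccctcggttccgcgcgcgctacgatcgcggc

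The Cd5l window held none of these 5 letter patterns. Elovl6 held a half-site that begins 162 bases before the first base of the GENCODE gene, where the printed stretch ends, and 193 bases before the RefSeq start site, which lies further downstream. Fasn, for which both starts are the same, held 3 CCAAT boxes, beginning 90, 62 and 59 bases before it, of which the last pair overlaps. Over the 8 windows the CCAAT box was found for Elovl1, Elovl5 and Fasn, the E-box for Elovl5, and the half-site for Elovl1 and Elovl6. The Elovl1 half-site lies in its second window (118429451 to 118429750), which is inside the GENCODE gene, not before its start. The Acaca window (84195188 to 84195487) is inside its gene too, as are all but 7 bases of the Fads2 window. For Acaca and Fads2 the windows thus do not show the sequence before the GENCODE start. The sterol regulatory element and the direct repeat were found for none. Of all 32851 windows in the table, 37.4% held the CCAAT box, 16.3% the half-site, 7.15% the E-box, 1.24% the sterol regulatory element and 0.0152% the direct repeat. A match says only that the letters occur, and its absence says nothing about binding of a factor.

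Other genes of the pathway were taken from 6 lists, of which 42 of 58 genes were tested. With 2DG, Degs2 and Pltp rose, Acsl3 fell and 39 did not pass (limma adjusted p under 0.05; 1.53% of all tested loci were called higher and 1.19% lower). The median log2 difference of the 42 was -0.07. Pltp, a phospholipid transfer protein gene and known LXR target, was at 1.72, 2.45 and 1.61 FPKM with vehicle and at 14.1, 14.8 and 7.69 FPKM with 2DG. The lowest 2DG library was above the highest vehicle library, with a log2 difference of 2.14 ± 0.24 (SE, adjusted p = 0.0091). Its adjusted p was 0.073 with replicates 2 and 3 only. Degs2, an enzyme of ceramide synthesis that desaturates or hydroxylates the sphingoid base, rose, being at 0.985 ± 0.234 FPKM in the vehicle group and 2.53 ± 0.416 FPKM in the 2DG group (SD, n = 3 per group; limma adjusted p = 0.041). Its vehicle mean was under 1 FPKM, so Degs2 reached the filter only through its 2DG libraries, and nothing is read from its call. Acsl3, an acyl-CoA synthetase gene listed together with Utp14b, fell, with 42.1 ± 2.87 FPKM in the vehicle group and 29.7 ± 2.73 FPKM in the 2DG group (limma adjusted p = 0.047). Degs2 and Acsl3 lost their calls when any single library was left out, with adjusted p-values up to 0.125 and 0.128.

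**Figure D3:**
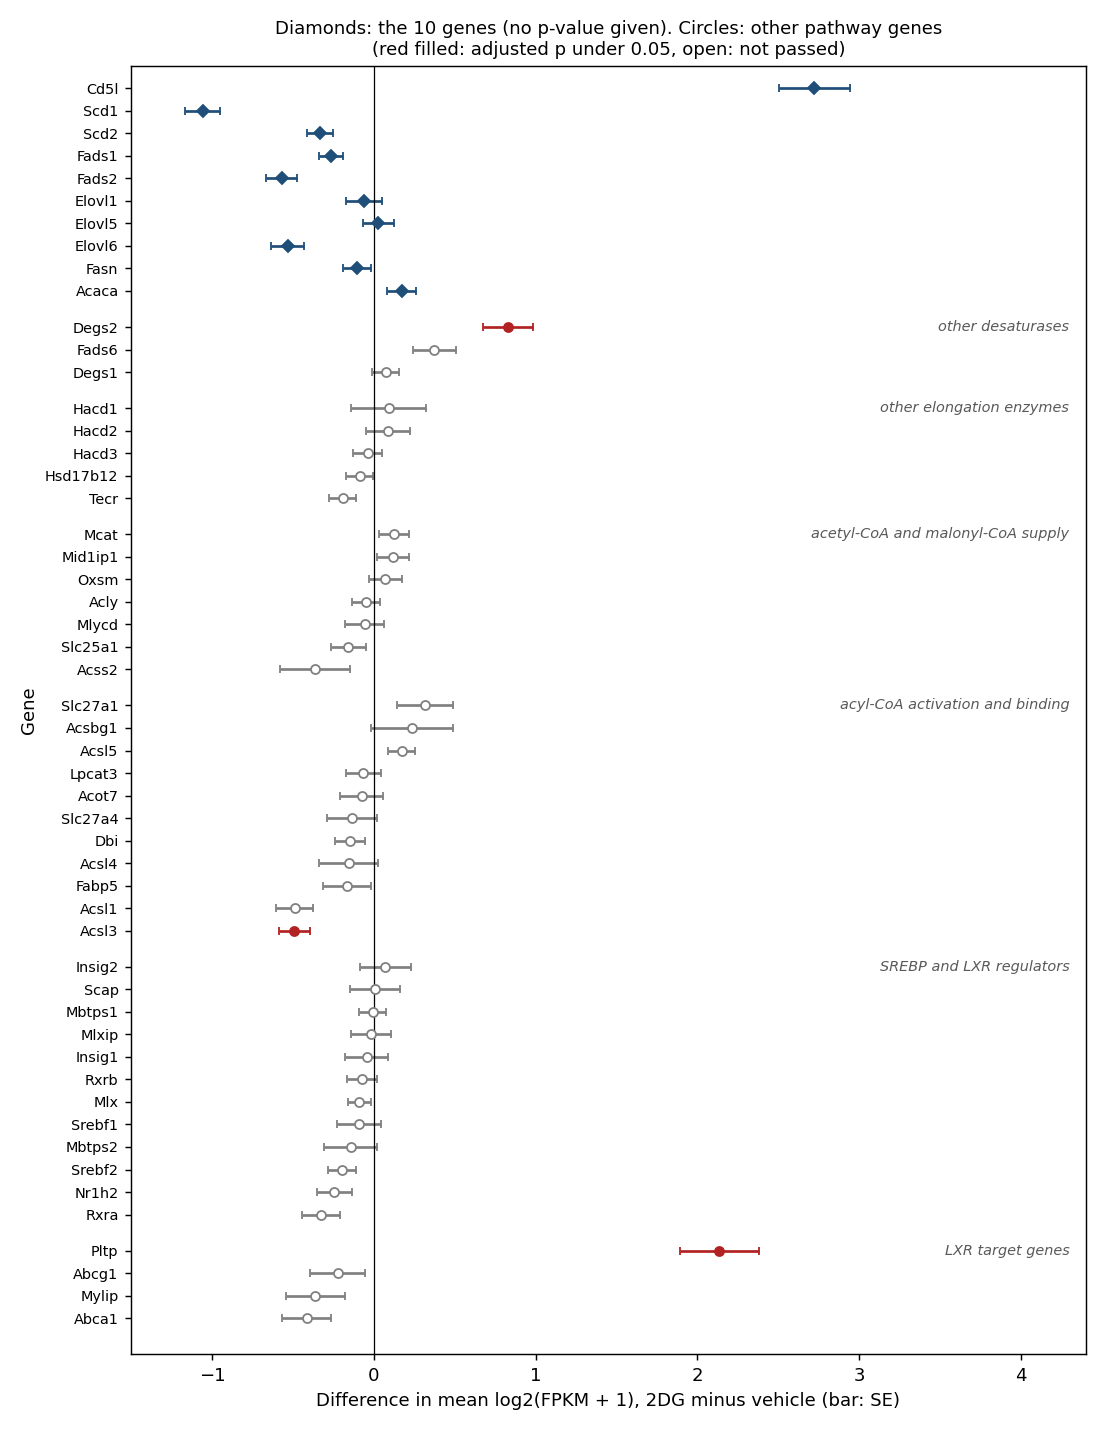
Difference in mean log2(FPKM + 1), 2DG minus vehicle, with its SE (horizontal axis) for the 10 genes (diamonds, no p-value given) and the 42 tested genes of the 6 pathway lists (circles, filled red where adjusted p was under 0.05). Cd5l (2.72) and Pltp (2.14) stand to the right of the others, and Scd1 (-1.06) to the left.

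Among the other desaturases 1 of 3 tested genes rose (Degs2, which reached the filter only through its 2DG libraries) and 0 fell. At an unadjusted p under 0.05, 2 were higher (Degs2 and Fads6) and 0 lower. All 3 had a log2 difference above 0, unlike the 4 desaturases of the 10 genes. The genes under the filter, with values near 0, went both ways. Their 2DG means were 0.681 times the vehicle mean for Fads3, 0.772 times for Scd3 and 2.85 times for Scd4. The groups did not overlap for Fads3 (lower with 2DG) and Scd4 (higher with 2DG). Fads6, named after its values were seen, did not pass, with a log2 difference of 0.37 ± 0.14 (SE, limma adjusted p = 0.21). Every 2DG library (1.87 FPKM or more) exceeded every vehicle library (1.61 FPKM or less) for this gene. Among the other elongation enzymes, which include the reductases and dehydratases of the elongation cycle, 0 of 5 tested genes passed in either direction (limma; 0 also at an unadjusted p). Elovl7 was at 0.528 ± 0.172 FPKM with vehicle, under the filter. In the supply of acetyl-CoA and malonyl-CoA, 0 of 7 passed (0 at an unadjusted p). There Acly, which makes cytosolic acetyl-CoA from citrate, was at 134 ± 9.72 FPKM with vehicle, with a log2 difference of -0.05 ± 0.09 (SE) whose sign turned with libraries scaled to equal sums outside small RNA loci (0.0078), without vehicle replicate 2 (0.00998) and without 2DG replicate 1 (0.0051). Of the genes of acyl-CoA activation and binding 1 of 11 fell (Acsl3) and 0 rose. At an unadjusted p under 0.05, 2 were lower (Acsl3 and Acsl1) and 0 higher. Acsl1, named after its values were seen, did not pass, with a log2 difference of -0.49 ± 0.11 (SE, limma adjusted p = 0.076).

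Transcripts of the regulators did not pass the test. Of 12 tested genes of the SREBP and LXR pathways, 0 were called by limma, and 0 higher and 1 lower (Rxra, named after its values were seen) had an unadjusted p under 0.05. Srebf1 was at 52.5, 66.8 and 58.5 FPKM with vehicle and at 50.3, 65.7 and 51.2 FPKM with 2DG, so the groups overlapped (adjusted p = 0.77). Srebf2, the SREBP of cholesterol synthesis, was at 44.3, 43.3 and 44.3 FPKM with vehicle and at 34.6, 42.0 and 38.4 FPKM with 2DG. Its groups did not overlap, but the difference of -0.20 ± 0.09 (SE) did not pass (adjusted p = 0.30). Insig1, a sterol-regulated retention protein of SREBP, was at 62.0 ± 9.25 FPKM with vehicle (SD, n = 3), with a log2 difference of -0.04 ± 0.13 (SE, adjusted p = 0.90) whose sign turned without vehicle replicate 1 (0.063) and without 2DG replicate 3 (0.040). Of the LXR genes, Nr1h2 was at 26.5 ± 1.96 FPKM with vehicle (log2 difference -0.24 ± 0.11, adjusted p = 0.30), and Nr1h3 was at most at 0.237 FPKM. Among 6 tested LXR target genes, of which Srebf1 and Lpcat3 are also in other lists, Pltp rose and 0 fell (1 lower at an unadjusted p, Abca1). Abca1, a cholesterol exporter, had a log2 difference of -0.42 ± 0.15 (SE, adjusted p = 0.22) and Abcg1, another exporter, of -0.22 ± 0.17 (adjusted p = 0.56). The median over the 6 was -0.16.

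The profile of Cd5l over the 6 libraries was compared with those of 9154 other tested loci of 1 named gene (without small RNAs, receptor segments of immune cells, pseudogenes or predicted genes), each centred on its own mean of log2(FPKM + 1). The smallest root mean square differences were those of Tff1 (0.32), Cib2 (0.38), Slc7a3 (0.38), Crtam (0.42) and Cd24a (0.46, all in log2 units). Tff1 encodes a secreted trefoil peptide, Cib2 a calcium-binding protein, Slc7a3 a transporter of cationic amino acids, Crtam a receptor of activated lymphocytes and Cd24a a surface glycoprotein. Of these Cd24a had the highest level, with a mean of 39.3 ± 7.71 FPKM in the vehicle group and of 146 ± 16.6 FPKM in the 2DG group (SD, n = 3 per group). Tff1 and Cib2 were low in the vehicle group, at 0.394 ± 0.683 and 0.521 ± 0.149 FPKM (SD, n = 3). At such levels the likeness depends on the 1 added before the log2. The likeness rests on 6 libraries and mostly on the difference between the groups.

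**Figure D4:**
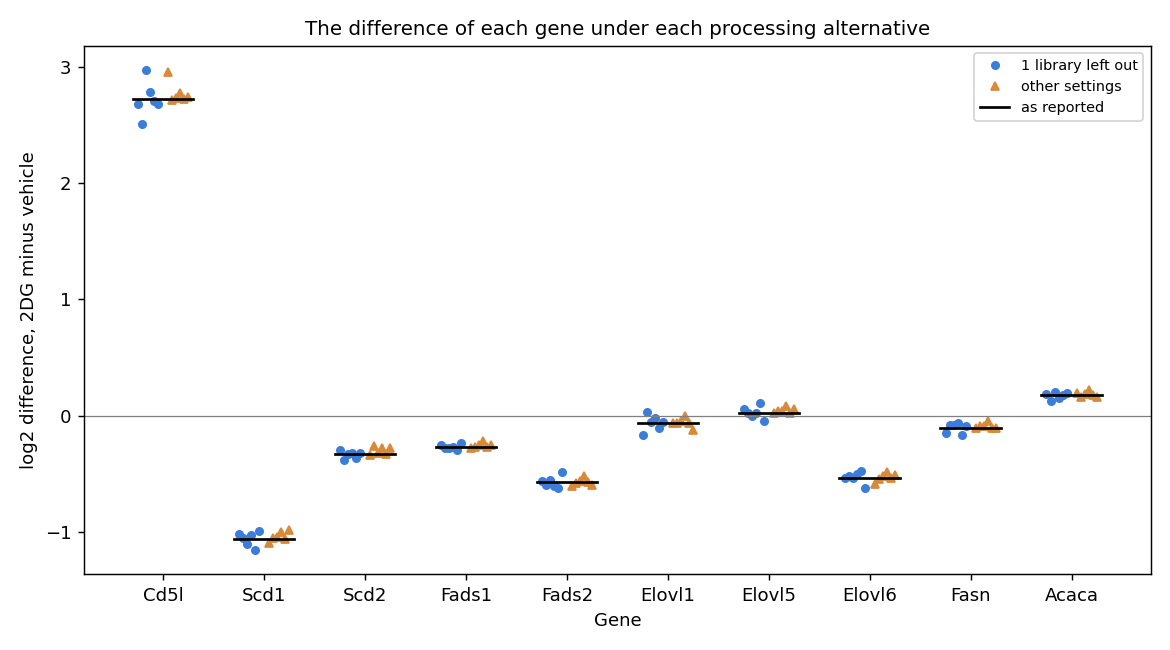
The log2 difference (vertical axis, 2DG minus vehicle) of each of the 10 genes as reported (black line), with 1 library left out (blue circles) and under 6 other settings (orange triangles). Of these settings, the replicate block cannot move the difference. Cd5l stays between 2.51 and 2.97, Scd1 between -1.16 and -0.99, and Elovl1 and Elovl5 lie on both sides of 0.

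The libraries had been scaled before deposit, with 75th percentiles of 10.9 to 11.6 FPKM and sums of 1469420 to 1958740. Of these sums, 69.8% to 76.1% came from 720 small RNA loci, so equal sums over all loci mainly equalize small RNA values. Without read counts the depth is unknown. The spacing of the smallest values hints at depths of 0.420 to 1.11 times that of vehicle replicate 1, a rough estimate. Over tested loci the log2 values of any pair of libraries correlated with r between 0.933 and 0.950, as a description.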

How the data were processed

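RNA from cultured Th17 cells was measured in 6 libraries. The deposited table holds 1 value per locus and library, taken as FPKM from the tools named in the submitters' processing notes (Cuffnorm 2.2.1.1, Cuffdiff 2.2.1.3 and Cufflinks 2.2.1.0 beside TopHat2 2.1.0, build mm10), since the file header does not name the unit. The sources used here give no settings, annotation, strand or scaling. Overlapping or near-identical genes therefore have uncertain values, and a value of exactly 0 may be an estimate that failed.

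Tests were run on log2(FPKM + 1), which understates changes of low genes, with limma 3.58.1 (R 4.3.3). They covered the 10228 loci whose mean reached 1 FPKM, with group as the only term, eBayes with trend, two-sided p-values adjusted by Benjamini-Hochberg over these loci and a threshold of 0.05. The code was tested on simulated data. The 10 genes, the lists and the alternatives were chosen with earlier results of these data known. Named are the 10 genes, up to 4 passing genes per list, a fixed set (among them Srebf1, Srebf2, Acly, Insig1, Abca1, Abcg1, Cd5 and Cd6) and the 5 profiles nearest to Cd5l. Other genes are marked where named. Some marker genes of the rule are not reported here. Ratios without log2 are of mean FPKM. Coordinates are from GENCODE M21 (GRCm38, the assembly of mm10). Python 3.11.15 with matplotlib 3.10.9 drew the figures.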

Additional observations from a re-analysis of the deposited data

How the results depend on the processing

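Counts of calls were recomputed under 16 alternatives, and the differences of the 10 genes under 12 of them. The differences of the tested genes named by the rule were recomputed under 12 to 16, since a gene has no value where it misses the filter. The replicate block is among the 12, but in this balanced design it cannot move a difference, so it says nothing about stability. Ratios, sums, counts without overlap, list medians, nearest profiles and genes named after their values were seen were not recomputed. The limits are the 3 libraries per group, the unknown depth and the scaling before deposit. Of the differences of the 10 genes, those of Cd5l, Scd1, Fads2, Elovl1, Elovl5, Elovl6, Fasn and Acaca moved by less than the spread between replicates under all 12, and that of Scd2 was -0.26 after quantile normalization and that of Fads1 -0.21 with equal sums outside small RNA loci. With 1 library left out they ran from 2.51 to 2.97 for Cd5l, -1.16 to -0.99 for Scd1, -0.38 to -0.29 for Scd2, -0.30 to -0.23 for Fads1, -0.62 to -0.48 for Fads2, -0.16 to 0.03 for Elovl1, -0.05 to 0.11 for Elovl5, -0.62 to -0.47 for Elovl6, -0.16 to -0.06 for Fasn and 0.13 to 0.21 for Acaca.

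Calls among the 10 genes support nothing, since the genes were selected on the same contrast. Their count of lower calls, 3 as reported, was 1 with no filter on low values, with equal sums over all loci, with equal sums outside small RNA loci and with the replicate block, and 0 with replicates 2 and 3 only (3 at an unadjusted p). Leaving out 1 library gave 1 to 2.

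Over all loci the counts of higher and lower calls, 156 and 122 as reported, were 100 and 65 with no filter, 95 and 62 with equal sums over all loci, 43 and 28 with replicates 2 and 3 only and 247 and 199 with robust eBayes, and leaving out 1 library gave 52 to 98 and 25 to 69. Among the other pathway genes, the 2 higher calls became 1 with no filter, with a mean of at least 5 FPKM, with equal sums over all loci, with the replicate block and without any 1 library, each time Pltp, and 0 with replicates 2 and 3 only (2 at an unadjusted p). Their single lower call, Acsl3, was lost, leaving 0, with no filter, with either equal sum, with the replicate block, with replicates 2 and 3 only, with eBayes without trend and without any 1 library (2 to 6 lower at an unadjusted p). The cause of these changes was not tested, other than that fewer libraries or more loci enter some fits.

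The titles of replicates 1, 2 and 3 carry the numbers 17, 42 and 43 in both groups. With the replicate block, a term for these numbers, 57 loci were called higher and 44 lower. No label says that the numbers pair the libraries. The deviations of same-numbered libraries from their group means correlated with -0.05, 0.19 and -0.11. Only the libraries of replicate 2 correlated best with their own number. Vehicle replicate 1 correlated best with 2DG replicate 3 (0.215), and vehicle replicate 3 with 2DG replicate 1 (0.125).

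Differences that changed sign were small and not called as reported. With equal sums outside small RNA loci, the log2 difference was 0.0078 for Acly, 0.012 for Insig1 and 0.0043 for Cd6. With 1 library left out it ran from -0.086 to 0.00998 for Acly, -0.149 to 0.0632 for Insig1, -0.28 to 0.0062 for Cd68 and -0.46 to 0.0265 for Lyz2 (which missed the filter without vehicle replicate 3 or 2DG replicate 2).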

Other observations

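Relatives of Cd5l in the scavenger receptor cysteine-rich family were looked at as a separate list of 10 genes, of which 9 were in the table and 3 were tested. Cd5 and Cd6, surface receptors of T cells, were at 245 ± 7.81 and 140 ± 5.51 FPKM with vehicle (SD, n = 3 each). Their log2 differences with 2DG were -0.11 ± 0.07 and -0.05 ± 0.07 (SE, limma adjusted p = 0.47 and 0.76). Lgals3bp, a secreted protein with such a domain, named after its values were seen, was at 9.57, 5.69 and 6.35 FPKM with vehicle and at 12.1, 14.5 and 14.0 FPKM with 2DG. Its groups did not overlap, and the difference did not pass (adjusted p = 0.057). In the list 0 of 3 passed, with 1 higher and 0 lower at an unadjusted p under 0.05. Dmbt1, Marco and Cd163l1 were listed at 0 in every library.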
